A study of Mus musculus with 36 samples.

Results

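The subject of these measurements was a set of 8 adipocyte marker genes, Adipoq, Cfd, Retn, Lep, Plin1, Fabp4, Car3 and Ucp1, read in liver and kidney of mice after a change of diet. The genes were chosen by symbol, and all 8 were found among the 33495 genes of the liver table and the 37991 genes of the kidney table. In the mm9 coordinates of the kidney table Adipoq spans chr16:23146609-23158101 (+), Cfd chr10:79353598-79355401 (+), Fabp4 chr3:10204347-10208576 (-) and Ucp1 chr8:85814247-85822355 (+). RNA came from 12-month-old male C57BL/6 mice of the NIA colony, which were first accustomed to a control diet and then either stayed on it or ate another diet for 1 week. The control diet held 12% of its energy as fat, 10% as protein and 78% as carbohydrate, the high-fat diet, which was not ketogenic, 75% as fat, 10% as protein and 10% as carbohydrate, and the ketogenic diet 90% as fat and 10% as protein. These are the sample labels' values, and the series' design text differs, giving every diet 10% of its energy as carbohydrate. In each tissue 5 libraries were from the control, 6 from the high-fat and 7 from the ketogenic diet, numbered from 0 within a diet. Tissue was taken at night, during feeding. The labels do not say that libraries came from separate mice, so the tests weigh changes against sample-to-sample spread that may be technical.

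White adipocytes store triglyceride in a single large droplet coated by perilipin and secrete hormones into the blood, while brown adipocytes burn fuel for heat through the uncoupling protein of their mitochondria. Healthy mouse liver and kidney parenchyma hold no adipocytes, but fat lies around the kidney and in its hilum, and perirenal fat of the mouse can contain brown adipocytes. Some genes used as adipocyte markers are not limited to fat: Car3 is abundant in hepatocytes and muscle, Fabp4 is also made by capillary endothelium and macrophages, and Fabp4 is a known target of PPAR transcription factors, which fatty acids activate.

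The promoters of 4 of the genes are shown because their RNAs varied together across kidney libraries, whereas in liver Cfd was detected and the other 3 were nearly absent. Each line gives the 250 bases before the annotated start, 5′ to 3′ on the gene's strand, from RefSeq on GRCm38.p6, a later build than the mm9 of the counts. They are Adipoq at chr16:23146286-23146535 (+), Lep at chr6:29059971-29060220 (+), Plin1 at chr7:79732777-79733026 (-) and Cfd at chr10:79890603-79890852 (+). Capitals mark matches, on either strand, to TTGCNNAA (a C/EBP-type element), to CCAAT (the box bound by NF-Y), to TATAA (the TATA box) or to AGGTCA (the core of nuclear receptor sites).
Adipoq: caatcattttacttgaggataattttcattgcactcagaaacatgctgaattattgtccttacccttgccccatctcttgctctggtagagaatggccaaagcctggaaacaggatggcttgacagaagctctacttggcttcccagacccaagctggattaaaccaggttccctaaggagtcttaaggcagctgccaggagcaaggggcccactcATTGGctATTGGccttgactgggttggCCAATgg
Lep: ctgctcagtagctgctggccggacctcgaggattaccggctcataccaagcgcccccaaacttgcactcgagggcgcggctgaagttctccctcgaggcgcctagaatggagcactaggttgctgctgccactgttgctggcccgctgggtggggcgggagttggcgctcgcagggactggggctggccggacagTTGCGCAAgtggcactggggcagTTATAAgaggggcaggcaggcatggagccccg
Plin1: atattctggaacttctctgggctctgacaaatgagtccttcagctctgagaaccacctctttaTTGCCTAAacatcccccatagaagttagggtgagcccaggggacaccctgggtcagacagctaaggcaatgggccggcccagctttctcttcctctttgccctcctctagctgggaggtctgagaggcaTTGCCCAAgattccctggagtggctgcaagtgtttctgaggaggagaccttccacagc
Cfd: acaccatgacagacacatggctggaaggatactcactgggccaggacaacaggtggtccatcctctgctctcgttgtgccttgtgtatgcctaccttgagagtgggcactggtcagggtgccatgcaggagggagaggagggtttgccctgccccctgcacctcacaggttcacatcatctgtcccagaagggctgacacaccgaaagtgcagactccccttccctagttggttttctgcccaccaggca

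The Adipoq window held 3 CCAAT matches, and the Lep window held 1 TTGCNNAA match, which begins 55 bases before the start, and 2 TATAA matches that overlap each other on opposite strands. Plin1 had 2 TTGCNNAA matches, 1 of them beginning 58 bases before its start, and Cfd had no match to any of the 4 motifs. Of the 32851 mouse promoters of this length, 9.56% held TTGCNNAA on either strand. CCAAT was in 33.8% of them, while 22.8% held the TATAA motif and 14.0% the AGGTCA motif. These letter matches are a description of the windows and were not tested for binding.

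Libraries held 18.9 to 35.9 M counted reads in liver and 25.4 to 47.04 M in kidney, of which mitochondrial genes took 49.7% to 71.7% and 68.3% to 79.7%. Levels below are raw read counts or counts per M reads (CPM, scaled by TMM factors), and 3 counts, the limit that a count of 0 allows, come to 0.0825 to 0.180 CPM in liver and 0.0636 to 0.121 CPM in kidney. These limits cover counting error only. The tissue labels were checked against defining genes: 10 hepatocyte genes summed to between 37555 and 55788 CPM in liver and to between 576 and 1099 CPM in kidney, and 10 proximal tubule genes to between 5729 and 9489 CPM in kidney and to between 9.16 and 18.9 CPM in liver. The tissues were counted into separate tables whose exon lengths for a gene can differ, as 921 bases in liver and 1381 in kidney for Adipoq, so levels set across tissues are a description.

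In liver, the adipocyte hormones were at or next to 0 while Cfd, Fabp4 and Car3 were present. Adipoq, which encodes adiponectin, an insulin-sensitising hormone, had 0 counts in 17 of 18 liver libraries and 1 count in ketogenic replicate 3. Lep, which encodes the satiety hormone leptin, and Ucp1, the brown-fat uncoupling protein, had 0 counts in all 18. Retn, which encodes resistin, had 1 count in control replicate 1, and Plin1, the perilipin of the adipocyte droplet, had 5 counts over 4 libraries. These 5 genes did not pass the filter on low counts in liver and were not tested there.

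Cfd, which encodes adipsin, the complement factor D protease, varied by the largest fold between libraries among the 3 liver genes that passed. Its counts in the 5 control livers were 0, 63, 6, 30 and 248. High-fat livers ranged from 10 to 459 with a median of 215.5, and ketogenic livers from 165 to 780 with a median of 578. The lowest ketogenic liver lay below the highest control liver, so these groups overlapped, but all 7 ketogenic livers were above the control mean. In CPM the means were 2.55 ± 3.34 (SD, n = 5) on control, 8.73 ± 8.34 (SD, n = 6) on high fat and 19.4 ± 8.71 (SD, n = 7) on ketogenic diet.

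On the log2 scale liver Cfd was 2.93 ± 1.03 (SE) higher on ketogenic than on control diet, with an unadjusted p of 0.0114 and an adjusted p of 0.397 by edgeR's quasi-likelihood test, which did not pass the threshold of 0.05. With limma-voom the change was 4.81 (adjusted p = 0.380). High fat against control gave 1.76 ± 1.01 (adjusted p = 0.715 in edgeR) and ketogenic against high fat 1.17 ± 0.87 (adjusted p = 0.999 in edgeR). All pairs of diet groups overlapped in CPM for the 3 tested markers, where 0.508%, 0.456% and 0.135% of all liver genes had groups that did not overlap (ketogenic against control, high fat against control and ketogenic against high fat). None of the 3 was called in any liver comparison, and 0% of the 13374 liver genes were called in each of the 3. At an unadjusted p under 0.05 there were 1255 liver genes, or 9.38%, for ketogenic against control, 950 (7.1%) for high fat against control and 426 (3.19%) for ketogenic against high fat, and DESeq2 called 79, 1 and 1. Cfd was not among the DESeq2 calls (adjusted p = 0.142 for ketogenic against control in DESeq2). The authors' deposited table lists false discovery rates for liver Cfd of 7.96e-20 for control against ketogenic, 0.00044 for control against high fat and 3.38e-09 for high fat against ketogenic. Those rates come from the authors' own processing and not from the fits used here, and the reason for the difference was not tested. Without control replicate 4, the control liver with 248 Cfd counts, the ketogenic change was 4.15 with an adjusted p of 0.160 in edgeR, and the high-fat change was 2.99.

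Fabp4, a fatty acid carrier of adipocytes, capillaries and macrophages, was low in liver. Control livers had 82, 60, 18, 59 and 70 counts, high-fat livers 29 to 209 with a median of 79.5, and ketogenic livers 42 to 366 with a median of 71. Ketogenic replicate 5 alone held the 366 counts and stood apart from its group, and all 3 groups overlapped. Its log2 change was 0.86 ± 0.46 for ketogenic against control (adjusted p = 0.584 in edgeR), and 0.36 without that library. Car3, a cytosolic carbonic anhydrase, was abundant in liver, at 1497 ± 639 CPM (SD, n = 5) on control, 1660 ± 471 (n = 6) on high fat and 1858 ± 402 (n = 7) on ketogenic diet. The ketogenic change of Car3 was 0.31 ± 0.25 on the log2 scale (adjusted p = 0.747 in edgeR), inside the spread between libraries.

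**Figure D1:**
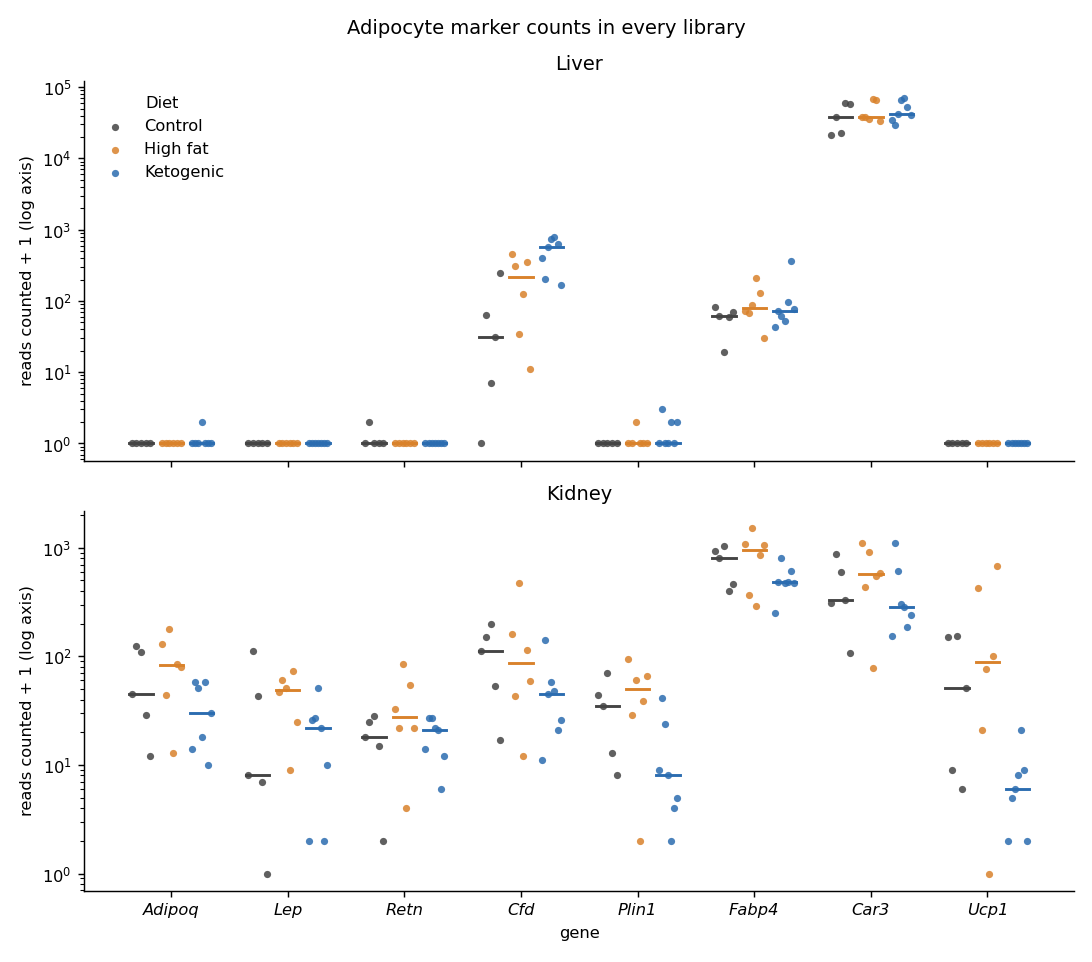
Reads counted plus 1 (vertical log axis) for each of the 8 genes (horizontal axis) in every liver (top) and kidney (bottom) library, with points coloured by diet and bars at the median. Adipoq, Lep, Retn, Plin1 and Ucp1 sit at 0 to 2 counts in liver, while liver Cfd runs from 0 to 780 and kidney Ucp1 from 0 to 673.

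In kidney all 8 markers passed the filter, and the adipocyte hormones were present at low counts in nearly every library. Control kidneys had 44, 123, 108, 28 and 11 Adipoq counts, high-fat kidneys 12 to 177 with a median of 81.5, and ketogenic kidneys 9 to 57 with a median of 29. Low and high libraries occurred on every diet, and the groups overlapped. Adipoq was 1.15 ± 0.53 (SE) lower on the log2 scale in ketogenic than in high-fat kidneys, a log2 change of -1.15 with an unadjusted p of 0.0451 and an adjusted p of 0.9998 in edgeR.

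Lep had 7, 110, 42, 6 and 0 counts in control kidneys, 8 to 72 with a median of 48 on high fat, and 1 to 50 with a median of 21 on ketogenic diet. A single control kidney, replicate 1, held more than any high-fat kidney. Without it the ketogenic log2 change against control went from -0.56 to 0.71, so its direction rested on that library. Retn had 17, 24, 27, 14 and 1 counts in control kidneys, 3 to 84 with a median of 26.5 on high fat, and 5 to 26 with a median of 20 on ketogenic diet. Its log2 change for high fat against control was 1.06 ± 0.49 (unadjusted p = 0.042, adjusted p = 0.862 in edgeR).

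Kidney Cfd had 112, 150, 198, 52 and 16 counts on control, 11 to 469 with a median of 85.5 on high fat, and 10 to 142 with a median of 44 on ketogenic diet. In contrast to liver, its highest group mean was the high-fat one, at 3.56 ± 3.38 CPM (SD, n = 6), against 2.95 ± 2.03 (n = 5) on control and 1.58 ± 1.23 (n = 7) on ketogenic diet. High-fat replicate 2 alone held 469, and without it the high-fat change turned from 0.30 to -0.35 on the log2 scale. Plin1 had 43, 34, 69, 12 and 7 counts on control, 1 to 94 with a median of 49 on high fat, and 1 to 40 with a median of 7 on ketogenic diet, and its ketogenic change against high fat was -1.81 ± 0.67 (unadjusted p = 0.0154, adjusted p = 0.9998 in edgeR).

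Fabp4 was the most abundant of the 8 in kidney per length of transcript, at 32.5 ± 10.5 counts per kb per M reads (SD, n = 5) on control diet. Car3 followed at 8.37 ± 5.67, Cfd at 3.20 ± 2.20, Adipoq at 1.29 ± 1.03, Ucp1 at 1.25 ± 1.18, Plin1 at 0.480 ± 0.354, Retn at 0.293 ± 0.181 and Lep at 0.280 ± 0.398. For each pair of neighbours below Fabp4 the ranges of mean ± SD overlapped, and those of Fabp4 and Car3 did not. Counts of Fabp4 in control kidneys were 934, 799, 1029, 402 and 463, with 289 to 1511 (median 951) on high fat and 251 to 797 (median 484) on ketogenic diet. Fabp4 changed by 0.24 ± 0.31 on the log2 scale for high fat and by -0.28 ± 0.30 for ketogenic against control (adjusted p = 0.998 and 0.851 in edgeR).

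Ucp1, the brown-fat marker, ran from 0 to 673 counts over the 18 kidneys. Its counts were 149, 8, 154, 5 and 50 in control kidneys, 426, 20, 76, 0, 100 and 673 in high-fat kidneys and 1, 4, 5, 7, 20, 8 and 1 in ketogenic kidneys. All 7 ketogenic kidneys held 20 counts or fewer, as did control replicates 1 and 3 and high-fat replicates 1 and 3, so the groups overlapped. The means were 2.05 ± 1.94 CPM (SD, n = 5), 6.61 ± 9.12 (n = 6) and 0.222 ± 0.231 (n = 7). Ketogenic against high fat gave a log2 change of -4.89 ± 1.18 (unadjusted p = 0.000829, adjusted p = 0.359 in edgeR), and ketogenic against control -3.21 ± 1.26 (unadjusted p = 0.022, adjusted p = 0.488 in edgeR). DESeq2 called the first (-4.93, adjusted p = 0.00594 in DESeq2), and edgeR and limma-voom did not. In that comparison DESeq2 called 30 of the 30030 kidney genes in its fit, a wider set than the 15074 tested by edgeR. Without high-fat replicate 5, which held 673 counts, the change was -3.92 in edgeR. The authors' deposited false discovery rates for kidney Ucp1 were 0.791 for high fat against ketogenic and 0.587 for control against ketogenic.

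Across the 8 kidney markers, none was called in any comparison by edgeR, beside 0.325% of the 15074 genes tested for ketogenic against control, 0.0133% for high fat against control and 0.0464% for ketogenic against high fat. The members at an unadjusted p under 0.05 numbered 1, 1 and 3 of 8, beside 8.35%, 5.73% and 4.07% of all genes. All 8 fitted changes were above 0 for high fat against control, with a median of 0.46 where that of all genes was 0.01, and all 8 were below 0 for ketogenic against high fat, with a median of -1.08 where that of all genes was 0.01. For ketogenic against control 6 of 8 were below 0. Lists of other cell types had changes below 0 for ketogenic against high fat as well, in 8 of 9 macrophage genes (median -0.18, 3 at an unadjusted p under 0.05) and 8 of 10 fibroblast genes (median -0.16, 1 at an unadjusted p under 0.05), and their part in the markers' change was not tested. Of all kidney genes, 47.3%, 48.1% and 46.8% were below 0 in these comparisons, in the order given here. Every pair of diet groups overlapped for all 8 markers, where 0.71% of kidney genes had groups that did not overlap for ketogenic against control, 0.77% for high fat against control and 0.206% for ketogenic against high fat. The comparisons share their high-fat or control libraries, and the markers varied together between libraries, so these counts are no set of independent results. In bulk tissue, fewer cells of a type and less RNA per cell cannot be told apart.

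**Figure D2:**
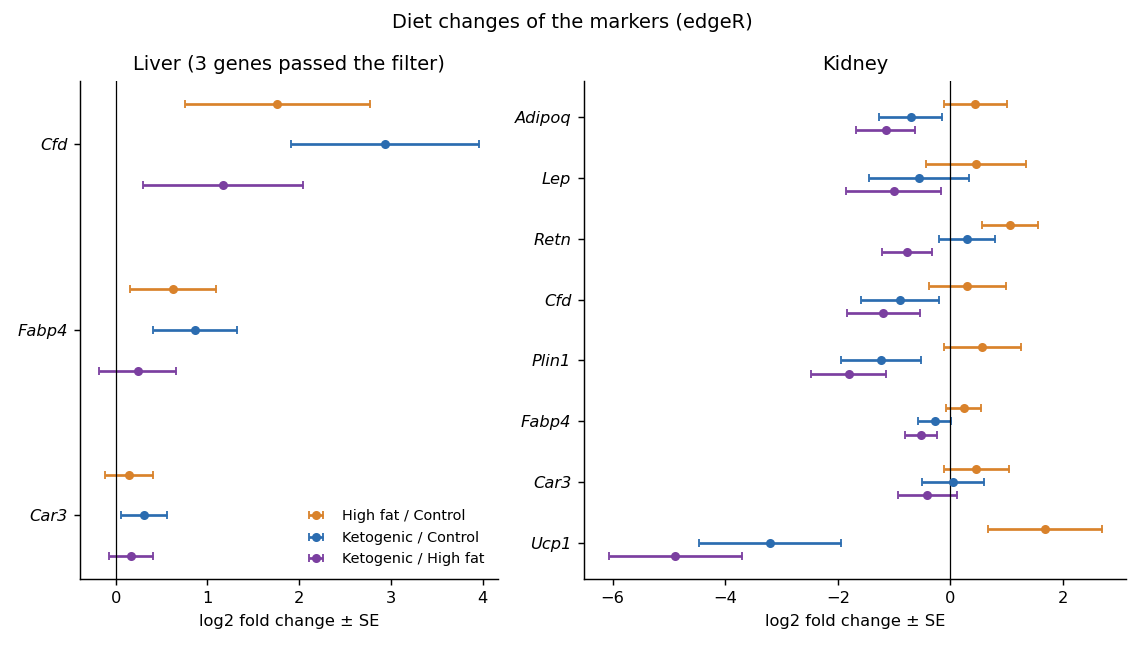
Log2 fold change with its SE (horizontal axis) from edgeR for the markers that passed the filter, by gene (vertical axis), in liver (left) and kidney (right), for the 3 pairs of diets. Liver Cfd lies at 2.93 for ketogenic against control, and kidney Ucp1 at -4.89 for ketogenic against high fat.

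The fitted ketogenic change of Cfd against control was above 0 in liver (2.93) and below 0 in kidney (-0.90). A fit of both tables together, chosen after the data were seen, gave a ketogenic change of Cfd that was 3.84 ± 1.21 (SE) larger on the log2 scale in liver than in kidney, with an unadjusted p of 0.00348 and an adjusted p of 0.369 in edgeR, and 0% of 15430 genes were called. Over the same genes 0.013% were called for the high-fat change against control and 0% for ketogenic against high fat. The same difference was 1.19 ± 0.56 for Fabp4 (adjusted p = 0.619 in edgeR) and 0.29 ± 0.59 for Car3 (adjusted p = 0.979 in edgeR). The labels do not say whether liver and kidney libraries came from the same mice, and these SE and p values do not allow for it.

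Within kidney, the markers were high and low in the same libraries. Over the 18 kidney libraries the Pearson r with Adipoq on the log2 CPM scale was 0.85 for Cfd, 0.85 for Car3, 0.79 for Retn, 0.79 for Lep, 0.72 for Plin1, 0.69 for Fabp4 and 0.54 for Ucp1. With diet means removed these were 0.84, 0.88, 0.84, 0.77, 0.66, 0.63 and 0.41. The median r of all 15074 kidney genes with Adipoq was -0.02. These points share their libraries and depth, and the r values are descriptions.

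The non-member genes most like Adipoq in kidney were Acvr1c, an activin receptor of adipocytes (r = 0.87), Steap4, a metalloreductase (0.85), Cidec, a lipid droplet fusion protein (0.85), Bche, butyrylcholinesterase (0.83), Hp, haptoglobin (0.81), Abcd2, a peroxisomal transporter (0.81), Aoc3, an amine oxidase of adipocytes and vessels (0.80), and Cd1d1, a lipid antigen presenter (0.77). Acvr1c, Cidec and Aoc3 are also on the list of other white adipocyte genes. Genes most like Car3 in kidney were Aoc3 (0.92), Cidec (0.84), Mmd (0.83), Abcd2 (0.82) and Bche (0.82).

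In kidney, Cidec (0.81), Cox8b, a cytochrome oxidase subunit of brown fat and muscle (0.77), Hp (0.77), Apoc1 (0.76) and Thrsp (0.76) were most like Fabp4. Cox8b, named with Ucp1 after its values were seen and not from a ranking of all genes, had r = 0.94 with Ucp1, where 17 genes were above 0.7, and lay between 0.93 and 0.97 when any 1 library was left out. Its counts were 27, 4, 36, 2 and 14 in control kidneys, 64, 3, 40, 0, 30 and 79 on high fat, and 1, 3, 3, 0, 12, 6 and 2 on ketogenic diet. On the list of other brown adipocyte genes, 5 were tested in kidney, Cox8b among them. Their median r with Ucp1 was 0.23, or 0.20 with diet means removed, and 1 was above 0.7. The brown list did not stand apart from other lists. The same 2 medians were 0.35 and 0.37 for other white adipocyte, 0.26 and 0.34 for capillary endothelium and 0.22 and -0.04 for macrophage genes. They were 0.15 and 0.10 for fibroblast, 0.08 and 0.08 for proximal tubule and -0.04 and -0.16 for hepatocyte genes. Among the members, r with Ucp1 was 0.75 for Fabp4, 0.68 for Plin1, 0.54 for Adipoq and 0.52 for Cfd. It was 0.39 for Car3, 0.30 for Retn and 0.25 for Lep. Skeletal muscle genes summed to at most 1.66 CPM over 10 genes in any kidney library.

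**Figure D3:**
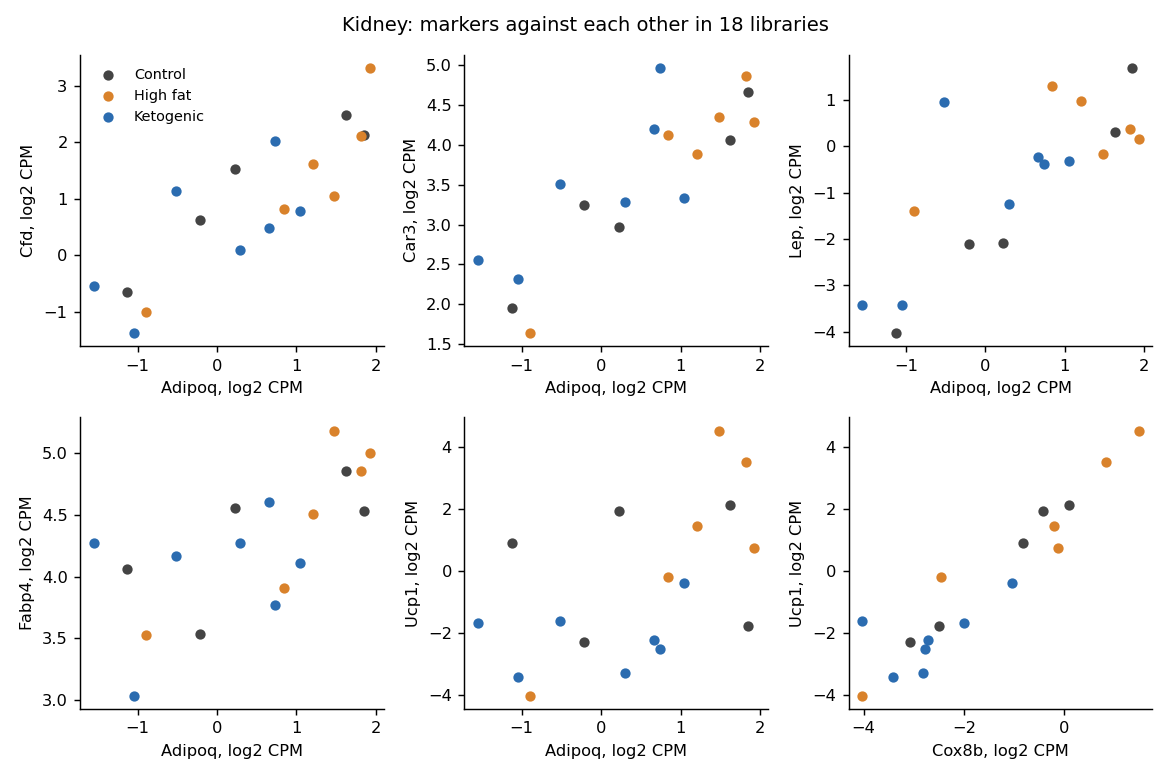
Each point is 1 of the 18 kidney libraries, coloured by diet, with log2 CPM of the 2 named genes on the axes. Cfd, Car3 and Lep rise with Adipoq (r of 0.85, 0.85 and 0.79), while Ucp1 follows Cox8b (0.94) more closely than Adipoq (0.54).

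Ratios of counts to Adipoq were taken in each kidney library. Per library, Cfd had 0.734 to 3.35 counts for each Adipoq count with a median of 1.29, and Car3 4.98 to 20.7 with a median of 8.35. Fabp4 ran from 6.50 to 68.6 with a median of 13.8, and the high ratios came in libraries with few Adipoq counts: ketogenic replicate 5 had 617 Fabp4 and 9 Adipoq counts, and control replicate 4 had 463 and 11. The ratios ran from 0.0175 to 0.977 for Plin1, 0.0909 to 1.24 for Retn, 0 to 2.94 for Lep and 0 to 8.52 for Ucp1. Summed over kidney, there were 1727 Cfd and 1071 Adipoq counts, a ratio of 1.61 (exact 95% interval 1.49 to 1.74, counting error only).

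The same ratio in liver was 5113 Cfd counts to 1 Adipoq count, with an exact 95% counting interval of 917 to 201992. For Fabp4 it was 1644 to 1, with an interval of 295 to 64974. Liver Cfd and Fabp4 were measured in libraries with almost no Adipoq, Lep, Retn or Plin1 RNA, which in kidney accompanied Cfd. Of the 24 other white adipocyte genes, 18 passed the filter in liver, and the list summed to between 1196 and 2332 CPM there with none of its genes at 0 throughout. Many of these genes, such as Acsl1, Thrsp and Dgat2, are also expressed by hepatocytes. The 6 that did not pass had 0 to 15 liver counts for Adig, 0 to 2 for Lgals12, 0 to 5 for Aoc3, 0 to 11 for Acvr1c, 0 to 68 for Slc2a4 and 0 to 2 for Sncg. The same 6 genes had 1 to 33, 4 to 34, 18 to 165, 0 to 42, 63 to 139 and 11 to 34 counts in kidney.

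**Figure D4:**
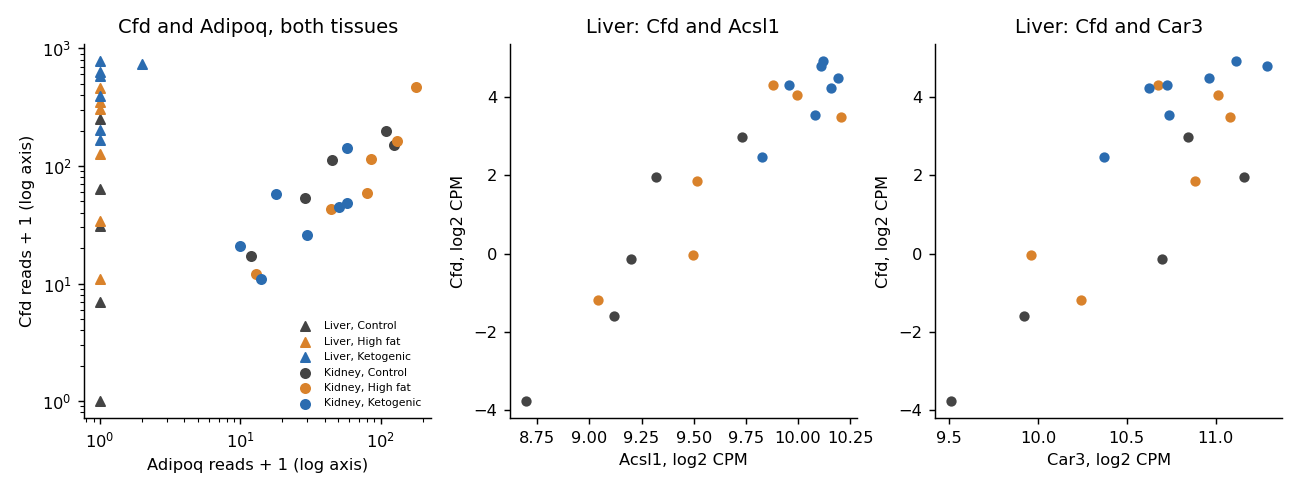
Left, Cfd against Adipoq reads plus 1 on log axes for liver (triangles) and kidney (circles) libraries. Middle and right, liver Cfd against Acsl1 and Car3 in log2 CPM; liver Cfd varies from 0 to 780 counts at 0 or 1 Adipoq count and has r = 0.95 with Acsl1 and 0.83 with Car3.

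Liver Cfd was high in the livers where many listed PPAR targets were high. Over 18 livers, 9 of 17 tested PPAR target genes had r above 0.7 with Cfd and their median r was 0.71, where 2.17% of all liver genes passed 0.7 and the median of all was 0.03. With diet means removed the list's median r was 0.56. The other white adipocyte genes also stood above all genes, with 6 of 18 above 0.7 and a median r of 0.56, or 0.38 with diet means removed. Not every target followed Cfd: Pdk4 had r = 0.24, and -0.15 with diet means removed. The closest listed genes, named after their values were seen, included Acsl1, which activates long-chain fatty acids (r = 0.95, and 0.91 with diet means removed), and Angptl4, an inhibitor of lipoprotein lipase and PPAR target (0.91 and 0.85). Cfd also went with Car3 (0.83) and with Cidea (0.80) and Cidec (0.76), droplet proteins with 0 to 620 and 67 to 1156 counts in liver. Acsl1, Cidea and Cidec are on the list of other white adipocyte genes, and not every gene on it followed Cfd. Thrsp had r = -0.58, or -0.28 with diet means removed, and Cd36 had 0.49, or 0.32. Control replicate 4, which had the most Cfd of the control livers, had 909 Angptl4 counts against 298 to 507 in the other control livers. These are raw counts of 1 gene, not scaled for depth. Replicate 4 held 28.1 M counted reads and the other control livers 18.9 to 35.9 M.

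Liver Fabp4 was most like Icam2, an endothelial adhesion molecule (r = 0.85), Serpina7 (0.84), Emp3 (0.83), Pkm2 (0.81) and Hvcn1, a proton channel of leukocytes (0.79), and it had r = 0.73 with Cd36, a fatty acid transporter. Over whole lists the median r with liver Fabp4 was 0.45 for PPAR targets, 0.44 for macrophage, 0.38 for other white adipocyte, 0.35 for fibroblast and 0.32 for capillary endothelium genes, and with diet means removed 0.38, 0.52, 0.32, 0.39 and 0.37. The summed capillary endothelium genes ran from 61.2 to 115 CPM on control, 64.6 to 78.6 on high fat and 55.0 to 89.2 on ketogenic diet, over 12 genes of which none was at 0 throughout. The 12 macrophage genes summed to 81.3 to 298 CPM on control, 98.2 to 178 on high fat and 83.0 to 171 on ketogenic diet, again with none at 0 throughout. Car3 in liver was most like Kmo (0.93), Aldh1a1 (0.90), 0610012H03Rik (0.89), Grsf1 (0.89) and Scp2 (0.89), and 71 liver genes had r above 0.8 with it. For high fat against control in liver, 4 of 5 tested genes of mesothelium, which lines organ surfaces, were higher at unadjusted p under 0.05. Of all liver genes 7.1% had such a p, in either direction. For ketogenic against control all 5 mesothelial genes were above 0, with a median log2 change of 1.28 where that of all genes was -0.02. Of these 5, 2 had an unadjusted p under 0.05 in edgeR, beside 9.38% of all liver genes. For ketogenic against high fat 4 of the 5 were below 0. The mesothelial list summed to between 0.128 and 6.36 CPM over all livers. Taken singly, the 5 tested genes had r with Cfd from 0.12 for Upk1b to 0.55 for Lrrn4 and Upk3b, and the list's median r fell from 0.41 to 0.12 with diet means removed. Their part in the Cfd result was not tested.

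The wider white adipocyte list was also read in both tissues. Of its 22 genes tested in kidney, 1 rose on ketogenic against control diet and 0 fell, where 0.325% of all kidney genes were called. It was Lipe, the hormone-sensitive lipase (log2 change 0.75, adjusted p = 0.0345 in edgeR). The list's median was 0.03 beside 0.02 for all genes. In the other comparisons 0 of 22 were called by edgeR, with medians of 0.16 for high fat against control and -0.14 for ketogenic against high fat. There 3 and 6 had an unadjusted p under 0.05, beside 5.73% and 4.07% of all kidney genes. Of 5 tested brown adipocyte genes 0 were called in any kidney comparison. For ketogenic against high fat Cox8b had -2.99 (adjusted p = 0.499 in edgeR), where the median of the 5 was -0.13 and 4 were below 0. Of the 5, 2 had an unadjusted p under 0.05, beside 4.07% of all kidney genes. In liver 18 white adipocyte genes were tested and 0 were called by edgeR. For ketogenic against control 8 had an unadjusted p under 0.05, beside 9.38% of all liver genes. Of the 18, 13 had a ketogenic change above 0 against control, where 52.7% of all liver genes were below 0.

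PPAR targets, the group to which Fabp4 also belongs, were read beside it. Of 16 tested in kidney, 8 rose on ketogenic against control diet and 0 fell, with a median of 0.99: Pdk4, the kinase that shuts off pyruvate dehydrogenase (2.54), Angptl4 (1.87), Cyp4a14 (4.02) and Cyp4a10 (1.40), fatty acid hydroxylases, Acot1 (1.36), Ucp2 (1.09), Vnn1 (0.89) and Plin2 (0.57), all past the threshold in edgeR. High fat against control raised 2 and ketogenic against high fat 1. Over all kidney genes 0.325% were called for ketogenic against control, 0.0133% for high fat against control and 0.0464% for ketogenic against high fat. The median r of the 16 targets with Fabp4 over 18 kidneys was -0.08, and with Ucp1 -0.39. With diet means removed these medians were 0.14 and -0.13. In liver, all 17 tested targets had a ketogenic change above 0 against control, with a median of 0.68. Of the 17, 11 had an unadjusted p under 0.05, beside 9.38% of all liver genes. By edgeR 0 of the 17 and 0% of all liver genes were called.

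Adding the Adipoq level as a term to the kidney fit moved the ketogenic change against high fat of the other markers. It went from -1.19 to 0.17 for Cfd, from -0.77 to 0.20 for Retn and from -1.01 to 0.12 for Lep. Plin1 went from -1.81 to -0.62, Fabp4 from -0.52 to -0.11 and Ucp1 from -4.89 to -3.85. Car3 went from -0.41 to 0.59, further from 0. For ketogenic against control, Retn went from 0.29 to 0.84 and Car3 from 0.05 to 0.61, away from 0, and Cfd from -0.90 to -0.20. None was called in that fit or in the fit without the term. Adipoq is itself a marker that varied with the others and was lower on ketogenic than on high-fat diet. Changes that shrink with Adipoq in the fit therefore cannot tell what lay behind them.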

How the data were processed

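Total RNA from 36 libraries, 18 per tissue, was amplified with random and oligo-dT primers per the labels' protocols. The authors deposited raw counts per gene with log2 fold changes and p-values or false discovery rates, per the file headers. The kidney counts are whole, so no estimated or expected counts in the deposited table had to be rounded. Per the submitters' processing notes, TopHat2 2.0.11, Subread, featureCounts, edgeR and DESeq were used with genome build mm9; whether counting used strand is not given in the sources used here. No marker overlaps another gene's span. Another 36 liver and 54 kidney per-sample columns were not used.

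In R 4.3.3, genes were kept by filterByExpr (minimum count 10), leaving 13374 liver and 15074 kidney genes, scaled by TMM and tested by the robust quasi-likelihood F test of edgeR 4.0.16, with diet as the only term, 18 libraries of a tissue in 1 fit and Benjamini-Hochberg adjustment over all genes at 0.05. Log2 CPM used a prior count of 2. Alternatives were other scalings, filters, DESeq2 1.42.0, limma-voom 3.58.1, a replicate block, an Adipoq covariate and leaving out each library. The fit was tested on simulated data. All 8 markers were named throughout, other lists' genes where past the threshold, and like genes by the highest Pearson r (8 for Adipoq, 5 for Fabp4 and Car3). Further list genes were named outside these rules, some after their values were seen. Among them were Cox8b beside Ucp1 in kidney, and Acsl1, Angptl4, Cidea, Cidec, Pdk4, Thrsp, Cd36 and the mesothelial genes beside Cfd in liver. The markers and gene lists were chosen with earlier results of these data known.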

Additional observations from a re-analysis of the deposited data

Results flagged for a closer look

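In 3 of the 33 groups examined, 1 library stood apart from its group by Dixon's criterion, which chance gives in about 1 in 20 groups. Liver Fabp4 in ketogenic replicate 5 was 10.8 CPM (366 counts), where the next ketogenic liver had 4.12 CPM. Kidney Lep in ketogenic replicate 3 was 1.88 CPM (50 counts), where the next had 0.790 CPM. Kidney Ucp1 in ketogenic replicate 4 was 0.705 CPM (20 counts), where the next had 0.263 CPM.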

How the results depend on the processing

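The count of genes called in liver for ketogenic against control was 0 in the fit reported, 79 with DESeq2, 4 with only the 2 diets compared and 81 with the replicate block, and 0 to 22 without 1 library (22 without control replicate 4, 14 without high-fat replicate 5, 2 without ketogenic replicate 6); high fat against control gave 1 with DESeq2 and 0 to 1 without 1 library, and ketogenic against high fat 1 with DESeq2. In kidney the 49 calls for ketogenic against control became 18 without normalization factors, 96 with DESeq2 and 21 to 56 without 1 library; the 2 for high fat against control became 21 with DESeq2 and 4 with the block; the 7 for ketogenic against high fat became 3 without factors, 30 with DESeq2, 4 with limma-voom, 3 with the block and 2 to 10 without 1 library. Ucp1 in the last passed only with DESeq2 (-4.93). Directions turned for liver Car3 ketogenic against high fat without factors (-0.033), kidney Car3 ketogenic against control without factors (-0.10), and kidney Lep ketogenic against control with limma-voom (0.11), the block (0.10) and the Adipoq covariate (0.67). The covariate also turned Cfd (-0.37) and Plin1 (-0.030) for high fat against control, and Cfd (0.17), Retn (0.20), Lep (0.12) and Car3 (0.59) for ketogenic against high fat. Without 1 library, liver Car3 high fat against control ran from -0.023 to 0.34, liver Fabp4 ketogenic against high fat from -0.26 to 0.48, kidney Car3 ketogenic against control from -0.36 to 0.47, Lep from -1.10 to 0.71 and Cfd high fat against control from -0.35 to 0.63. Liver Cfd for ketogenic against control was 4.81 with limma-voom and 4.24 with the replicate block, against 2.93. The causes were not tested. With all libraries in, 302 marker changes under other settings kept their direction and side of the threshold, 11 turned and 1 passed it. Same-numbered libraries had r above 0.1 in 7 of 16 liver and 9 of 16 kidney pairs. In liver 7 of 18 and in kidney 4 of 18 libraries were most like one of their own number. These counts were not set against what unpaired libraries would give, so whether the numbers mark a pairing or batch was not tested. In the kidney count headers the samples of all diets share a run of numbers, each used once. The replicate number there is a sample's order within its diet, and the replicate block joins libraries of like order. The liver headers give no such run. The Adipoq covariate could not be fitted in liver, where 17 of 18 libraries have 0 Adipoq counts. Depth limits the liver hormones: 0 counts allow up to 0.0825 to 0.180 CPM per library.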
